A study of Mus musculus with 60 samples.

Results

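The step from the first to the second wave of the response to hepatocyte growth factor (HGF) was examined in primary mouse hepatocytes. It sets the 4 arrays of 4 and 8 h after HGF against the 4 arrays of 0.5 and 2 h, which are 8 of the 60 arrays of the series. Membership follows the labelled stimulus and hour alone. All cells came from male C57BL/6N mice of 8 to 12 weeks. Each experiment used hepatocytes of 1 animal or of a pool of up to 3. Control and stimulated dishes alike were collagen-coated and were held for 24 h before stimulation in medium free of serum with 100 nM dexamethasone, a synthetic glucocorticoid. The HGF arm received 40 ng/ml recombinant mouse HGF, the IL-6 arm 40 ng/ml recombinant human interleukin 6 (IL-6) and the combination arm both. Unstimulated dishes received neither. Each condition and hour holds 2 arrays. The same step in the IL-6 arm (8 arrays) gives what passed between these hours in culture under another stimulus.

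HGF is made by non-parenchymal liver cells and binds Met, a receptor tyrosine kinase that signals through Ras and MAP kinase, PI3-kinase and STAT3. Such a signal is known to raise immediate early genes without new protein synthesis, among them transcription factors such as Fos and Egr2. Their products and their feedback inhibitors shape a second wave, which in hepatocytes holds genes of motility, matrix breakdown and growth. IL-6 acts through gp130 and STAT3 and is the main inducer of acute phase proteins in liver.

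Values are log2 intensities as deposited, and a step is a log2 difference, the mean of 4 and 8 h minus the mean of 0.5 and 2 h. Changes were called in limma's moderated test at a Benjamini-Hochberg adjusted p under 0.05 over 14496 genes. Each step holds 4 arrays on each side, and the standard error (SE) comes from a spread shared by all 29 groups. Nothing in the labels ties the 2 arrays of a condition to different animals, so p-values measure the spread between arrays, which may be technical. Replicate arrays of the 8 groups correlated at 0.997 to 0.998. The spike-in hybridisation control bioB read 8.36 to 8.47 on the HGF arrays of 0.5 h, 6.14 to 6.35 on those of 2 to 8 h and 7.03 to 7.21 on the IL-6 arrays of 0.5 to 8 h. The 0.5 h arrays of the HGF arm therefore stand apart from the rest of their arm on this control, and results are also given against 2 h alone where that changes them. Its part in the results was not tested.

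The labelled cell type was checked against marker lists, and each list is given for itself, because levels of different probe sets cannot be compared. The mean over 9 hepatocyte markers lay between 13.01 and 13.08 on the earlier HGF arrays and between 12.78 and 12.96 on the later ones. Of these 9, 3 fell at the step and none rose, with Cps1 moving most. The array means of 12 Kupffer cell markers were 5.22 to 5.45 on the earlier and 5.23 to 5.35 on the later arrays, and 1 of the 10 tested rose while 1 fell. The corresponding ranges were 5.01 to 5.08 and 4.99 to 5.03 for 10 stellate cell markers, 5.60 to 5.69 and 5.45 to 5.55 for 10 endothelial markers, 5.20 to 5.50 and 5.47 to 5.60 for 7 cholangiocyte markers, and 3.92 to 4.15 and 3.98 to 4.17 for 8 lymphocyte markers. Of those tested, 1 of 8 stellate cell markers fell and 0 rose, and 2 of 9 endothelial markers fell and 0 rose. Of 6 cholangiocyte markers 2 rose (Krt19, 0.78, and Prom1, 0.69) and 1 fell (Sox9, -0.44), and of 4 lymphocyte markers 1 rose and 0 fell. Over all genes tested 15.8% rose and 15.9% fell. In bulk RNA, fewer cells of a type and less RNA per cell cannot be told apart.

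At the HGF step 4597 genes changed, 31.7% of those tested, of which 2293 rose and 2304 fell. Only 22 of the rises and 45 of the falls reached 2-fold, and the median over all genes was 0.01. All 4 later arrays lay above all 4 earlier ones for 1587 genes (10.9%) and below them for 1691 (11.7%). Of the genes that rose, 1785 (77.8%) had their highest mean at 8 h and 459 at 4 h. Of those that fell, 1879 (81.6%) were lowest at 8 h, and 1765 (76.6%) had been highest at 0.5 h. Hour by hour, 1788 genes (12.3%) changed between 0.5 and 2 h, 1316 (9.08%) between 2 and 4 h and 1506 (10.4%) between 4 and 8 h. Consecutive comparisons share the arrays of the hour between them. Relative to 2 h alone, 3332 genes changed, and 2887 of the 4597 (62.8%) were called again in the same direction while 11 were called in the opposite one. The shares over all genes were then 11.8% rising and 11.1% falling with HGF and 13.8% and 10% with IL-6. For the difference between the arms they were 2.06% upward and 3.49% downward. At the full step these shares were 15.8% and 15.9% with HGF, 17.2% and 13.8% with IL-6, and 4.66% and 6.4% for the difference. List counts below are to be read beside these shares.

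Among immediate early genes falls were more frequent than rises, and about as many did not pass. Of 31 measured, 15 fell, 0 rose and 16 did not pass, against 15.9% of all genes falling and 15.8% rising, and the list median was -0.14 beside 0.01 for all genes. Between 0.5 and 2 h, 16 of the 31 fell (6.37% of all genes) and 4 rose (5.96%). Between 2 and 4 h, 12 fell (3.99% of all genes) and 3 rose (5.08%), and between 4 and 8 h 5 fell (5.41%) and 3 rose (4.98%). With the 2 h arrays alone as reference, 11 fell (11.1% of all genes), 3 rose (11.8%) and 17 did not pass.

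Egr2, a zinc finger transcription factor, read 7.03 and 7.53 at 0.5 h, 5.00 and 4.96 at 2 h, 3.73 and 3.83 at 4 h and 4.07 and 3.90 at 8 h. All later arrays lay below all earlier ones, and among genes with that separation its fall was the largest. The decline ran over the intervals from 0.5 to 2 h and from 2 to 4 h. The step was -2.25 (SE 0.12, adjusted p = 1.28e-19), and was -1.10 against 2 h alone. The later values lie below the median of every array (4.88 to 4.97) and no detection call was used here, so no fold is given and the step may understate the fall. A probe set of Egr2 other than the one used gave a step of -2.66.

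Fos, the partner of Jun proteins in the AP-1 factor, followed another course and read 11.84 and 11.87 at 0.5 h, 8.37 and 8.22 at 2 h, 8.27 and 8.41 at 4 h and 7.95 and 8.08 at 8 h. Only the 0.5 h arrays were high, and the 2 h arrays lay within the range of the later ones. The step of -1.90 (SE 0.08, adjusted p = 5.71e-24) thus came from the interval between 0.5 and 2 h, which held a fall of -3.56. When 2 h alone was the reference, the Fos step was -0.12 (adjusted p = 0.43), so the call rests on the 0.5 h arrays.

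Atf3, a stress-induced member of the ATF/CREB family, read 10.10 and 10.15 at 0.5 h, 8.31 and 8.37 at 2 h, 7.40 and 7.56 at 4 h and 7.70 and 7.85 at 8 h. Its later arrays all lay below its earlier ones, with the lowest values at 4 h. The step was -1.60 (SE 0.06, adjusted p = 1.21e-24), and was -0.71 against 2 h alone. From hour to hour the changes were -1.79 between 0.5 and 2 h, -0.86 between 2 and 4 h and 0.30 between 4 and 8 h. Btg2, an antiproliferative factor that growth factors and p53 both induce, declined steadily and read 11.82 and 11.81 at 0.5 h, 11.37 and 11.39 at 2 h, 10.76 and 10.82 at 4 h and 10.43 and 10.48 at 8 h. No array of a later hour reached one of an earlier hour, and the step was -0.97 (SE 0.04, adjusted p = 3.35e-23). Ccn1, a secreted matricellular protein, fell by 0.66 (SE 0.03, adjusted p = 2.42e-20), or 0.23 against 2 h alone, from a mean of 12.62 at 0.5 h to 11.46 at 8 h. Myc, the growth-promoting factor, had a step of -0.13 that did not pass (adjusted p = 0.0541). It fell by 0.64 between 0.5 and 2 h and was 0.19 higher at 4 and 8 h than at 2 h (adjusted p = 0.0314), so its direction turns with the reference hour.

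**Figure D1:**
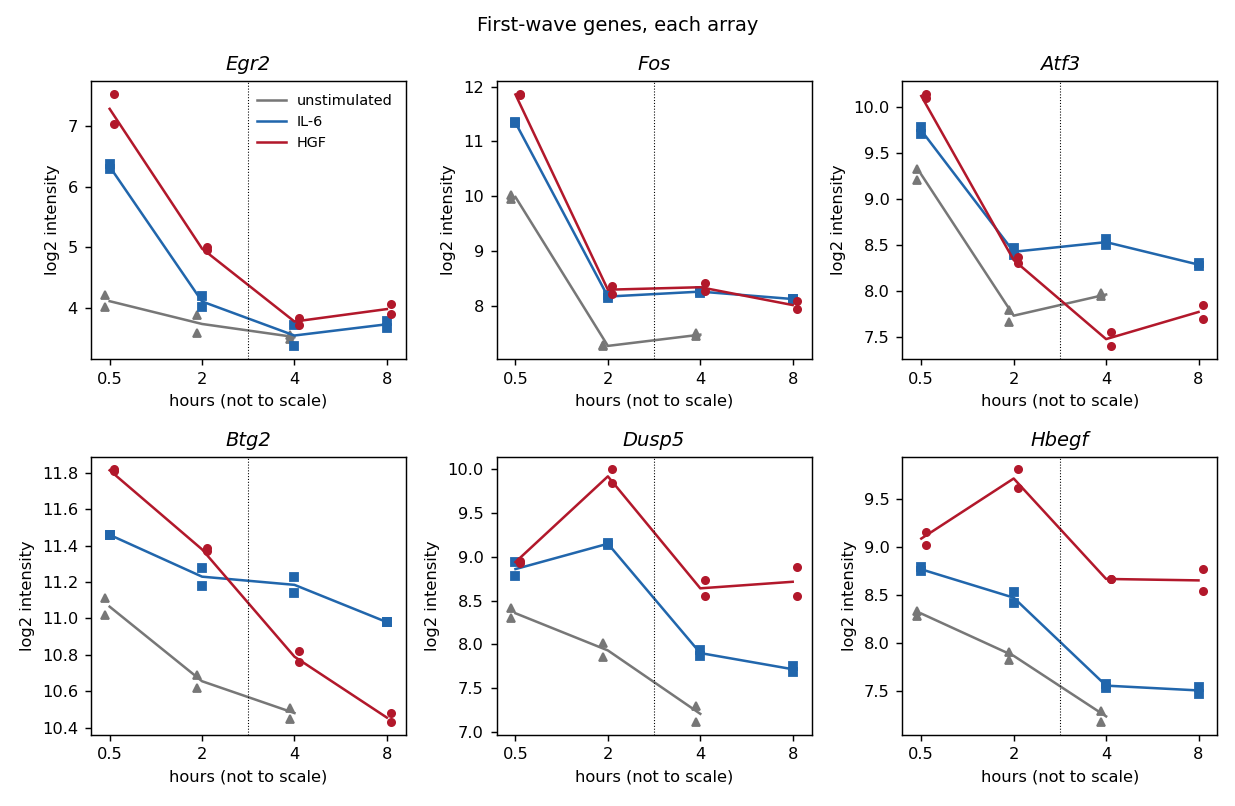
Log2 intensity of 6 first-wave genes on each array (points) by hour after HGF (red circles), IL-6 (blue squares) or no stimulus (grey triangles, to 4 h), with lines through the means of the 2 arrays and a dotted line between the first and second wave. Fos drops between 0.5 and 2 h in all 3 arms, Dusp5 and Hbegf peak at 2 h in the HGF arm, and Btg2 falls at every hour with HGF.

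Some of these falls also took place with IL-6 and some were larger with HGF. In the IL-6 arm 18 of the 31 immediate early genes fell (13.8% of all genes) and 3 rose (17.2%). There 15 fell (6.63% of all genes) and 1 rose (5.76%) between 0.5 and 2 h, 6 fell (4.59%) and 1 rose (7.04%) between 2 and 4 h, and 3 fell (4.77%) and 2 rose (5.86%) between 4 and 8 h. In the test of the difference between the steps, 6 of the 31 were lower in the HGF arm (6.4% of all genes) and 5 were higher (4.66%). Egr2 fell by 1.58 with IL-6, to values below the array medians in that arm too. The difference of -0.67 (adjusted p = 0.00562) was -0.63 and did not pass against 2 h alone (adjusted p = 0.0694). Atf3 fell by 0.68 with IL-6 and Btg2 by 0.26, with differences of -0.93 (adjusted p = 1.97e-11) and -0.71 (adjusted p = 5.61e-13). Fos fell by 1.56 with IL-6, and its difference of -0.34 (adjusted p = 0.0326) was -0.14 (adjusted p = 0.705) against 2 h alone. The difference for Ccn1 was 0.07 and did not pass (adjusted p = 0.431).

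Promoter sequences are shown for the first 2 named genes of the immediate early and the MAP kinase feedback lists, because these lists hold the regulators of the first wave described here. Each window runs from 250 bases before to 50 bases after the start of the gene, 5′ to 3′ on the gene's own strand, from RefSeq on GRCm38.p6. Capitals mark matches on either strand to the AP-1 motif TGANTCA, the cAMP response element TGACGTCA, the E-box CACGTG or the serum response element (searched as the CArG box). The windows are chr1:191183284-191183583 (Atf3, minus strand), chr12:85473640-85473939 (Fos, plus strand), chr17:26508423-26508722 (Dusp1, minus strand) and chr19:53528895-53529194 (Dusp5, plus strand).
Atf3: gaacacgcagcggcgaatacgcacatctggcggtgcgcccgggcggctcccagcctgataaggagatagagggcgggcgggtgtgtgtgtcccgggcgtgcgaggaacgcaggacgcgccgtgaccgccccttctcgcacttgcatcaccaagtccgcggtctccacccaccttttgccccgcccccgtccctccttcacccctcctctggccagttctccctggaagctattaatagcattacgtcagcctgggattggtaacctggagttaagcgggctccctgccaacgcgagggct
Fos: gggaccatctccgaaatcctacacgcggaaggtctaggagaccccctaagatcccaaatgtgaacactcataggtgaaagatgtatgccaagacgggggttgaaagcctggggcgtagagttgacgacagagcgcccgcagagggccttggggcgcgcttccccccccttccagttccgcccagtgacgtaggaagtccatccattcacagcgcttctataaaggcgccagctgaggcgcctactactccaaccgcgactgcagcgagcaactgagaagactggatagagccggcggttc
Dusp1: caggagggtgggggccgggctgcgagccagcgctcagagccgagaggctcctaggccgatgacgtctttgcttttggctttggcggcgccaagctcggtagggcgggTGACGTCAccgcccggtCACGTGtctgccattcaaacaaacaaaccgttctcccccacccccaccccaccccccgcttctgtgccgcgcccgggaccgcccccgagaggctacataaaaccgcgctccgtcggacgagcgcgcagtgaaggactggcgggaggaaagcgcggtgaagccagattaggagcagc
Dusp5: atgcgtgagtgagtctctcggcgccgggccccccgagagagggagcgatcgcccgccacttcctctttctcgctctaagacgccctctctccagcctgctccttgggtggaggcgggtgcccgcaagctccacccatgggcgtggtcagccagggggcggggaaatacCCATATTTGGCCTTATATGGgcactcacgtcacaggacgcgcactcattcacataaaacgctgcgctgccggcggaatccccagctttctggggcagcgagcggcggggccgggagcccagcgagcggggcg
Dusp5 holds 2 adjoining serum response elements, which begin 82 and 72 bases before the start. Dusp1 holds a cAMP response element that begins 143 bases before the start and an E-box that begins 126 bases before it. The Atf3 and Fos windows hold none of these letters. Of 27025 promoters of this length, 1.57% hold the serum response element, 1.88% the cAMP response element, 7.24% the E-box and 7.93% the AP-1 motif. Of the 15 immediate early genes that fell, 12 have an entry, of which 1 holds a serum response element, 1 a cAMP response element, 3 an E-box and 0 the AP-1 motif. A match describes letters in the window and is not evidence of a site.

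Feedback inhibitors of MAP kinase signalling moved in both directions. Of the 21 on the array, 6 rose and 6 fell (15.8% and 15.9% of all genes), with a median of -0.03. Against 2 h alone 3 rose and 9 fell (11.8% and 11.1% of all genes). Dusp1, a nuclear phosphatase of MAP kinases, read 12.69 and 12.69 at 0.5 h, 12.04 and 12.01 at 2 h, 11.79 and 11.77 at 4 h and 11.87 and 11.79 at 8 h. It was highest at 0.5 h, and the earlier arrays lay above all later ones. The step was -0.55 (SE 0.03, adjusted p = 2.99e-20), or -0.22 against 2 h alone. Dusp5, a phosphatase of ERK, peaked later and read 8.93 and 8.95 at 0.5 h, 10.00 and 9.84 at 2 h, 8.55 and 8.73 at 4 h and 8.55 and 8.88 at 8 h. It rose by 0.97 between 0.5 and 2 h and fell by 1.28 between 2 and 4 h, which gave a step of -0.76 (SE 0.08, adjusted p = 2.71e-10) and one of -1.24 against 2 h alone. Phlda1 fell by 0.23 (adjusted p = 3.97e-06). Spred2, an inhibitor of Ras signalling to Raf, rose by 0.23 (adjusted p = 8.93e-05), though the mean over its probe sets gave 0.07 (adjusted p = 0.237).

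The test of the difference from the IL-6 step was mostly positive for these genes where it passed. It was positive for 5 of the 21 (4.66% of all genes) and negative for 1 (6.4%). It was 0.44 for Dusp5 (IL-6 step -1.19, adjusted p = 0.00707), 0.29 for Phlda1 (IL-6 step -0.52, adjusted p = 0.000148) and 0.28 for Spred2 (IL-6 step -0.04, adjusted p = 0.00305). For Dusp1 it was -0.10 and did not pass (adjusted p = 0.0977). Set against the 2 h arrays alone, 0 of the 21 differed upward (2.06% of all genes) and 1 downward (3.49%). The difference for Dusp5 was then 0.10 (adjusted p = 0.848).

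Growth factor ligands moved in both directions. Of 15 such genes 4 rose and 5 fell (15.8% and 15.9% of all genes). Against 2 h alone 3 rose and 3 fell (11.8% and 11.1% of all genes). Hbegf, the heparin-binding ligand of the EGF receptor, read 9.02 and 9.16 at 0.5 h, 9.81 and 9.62 at 2 h, 8.67 and 8.67 at 4 h and 8.54 and 8.77 at 8 h. Its 2 h arrays were the highest and all later arrays lay below the earlier ones, with a step of -0.74 (SE 0.07, adjusted p = 1.26e-11). Betacellulin (Btc), another EGF receptor ligand, moved the other way and read 6.92 and 6.62 at 0.5 h, 7.30 and 7.35 at 2 h, 7.63 and 7.64 at 4 h and 7.46 and 7.63 at 8 h. It rose by 0.54 (SE 0.07, adjusted p = 1.07e-08), or 0.26 against 2 h alone, while in the IL-6 arm it fell by 0.44 (adjusted p = 9.66e-07), and the difference was 0.98 (adjusted p = 8.84e-11). Neuregulin 1 (Nrg1) fell by 0.70 (adjusted p = 2.07e-08). Fgf21, a fasting hormone of liver, had a step of -0.61 (adjusted p = 4.66e-07) that came from its level at 0.5 h, and was 0.51 higher than at 2 h in the later arrays (adjusted p = 0.000427).

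Of 20 receptor genes measured, 4 rose (15.8% of all genes), 6 fell (15.9%) and 10 did not pass, among them the HGF receptor Met. Against 2 h alone 1 rose (11.8% of all genes), 4 fell (11.1%) and 15 did not pass. Met read 10.81 and 10.90 at 0.5 h, 10.87 and 10.91 at 2 h, 10.83 and 10.82 at 4 h and 10.88 and 10.84 at 8 h. These arrays overlap completely, and the step was -0.03 (SE 0.04, adjusted p = 0.656). Met fell by 0.19 with IL-6, and the difference of 0.16 (adjusted p = 0.036) was lost when any of 10 of the 16 arrays of both steps was left out (adjusted p of 0.0516 to 0.143) and against 2 h alone (adjusted p = 0.475). Egfr, the receptor of Hbegf and Btc, rose by 0.55 (SE 0.05, adjusted p = 1.26e-12), from 9.74 and 9.77 at 0.5 h to 10.52 on both arrays at 8 h. Its probe sets disagree, and those next in mean level gave HGF steps of 0.10, -0.24 and 0.44. Erbb3, a neuregulin receptor, fell by 0.45 with HGF (adjusted p = 2.11e-10) and rose by 0.51 with IL-6 (adjusted p = 7.8e-12). Without the 0.5 h arrays its HGF step was -0.14 and did not pass (adjusted p = 0.0949), while the difference of -0.71 did (adjusted p = 3.25e-08). Il6ra, the IL-6 receptor, fell by 0.50 in both arms, and its HGF arrays peaked at 2 h at 8.04 and 8.03, which gave a step of -0.89 against 2 h alone. Its other probe set, lower in mean level, gave steps of -0.0 with HGF and 0.12 with IL-6.

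Among genes of invasion and matrix, rises were more frequent than falls. Of the 21 members tested, 8 rose, 1 fell and 12 did not pass (15.8% and 15.9% of all genes rose and fell), with a median of 0.11. With 2 h as the only earlier hour 5 rose and 2 fell (11.8% and 11.1% of all genes). Cd44, the hyaluronan receptor and a co-receptor of Met, read 7.41 and 7.57 at 0.5 h, 8.15 and 8.09 at 2 h, 8.52 and 8.45 at 4 h and 8.69 and 8.75 at 8 h. Each hour lay above the one before it on both arrays. The step was 0.80 (SE 0.05, adjusted p = 1.59e-17), a 1.74-fold rise, and it was 0.48 against 2 h alone. The integrin subunit Itga3 read 8.13 and 7.94 at 0.5 h, 8.14 and 8.21 at 2 h, 8.52 and 8.61 at 4 h and 8.85 and 8.96 at 8 h. Its rise began after 2 h and came to 0.63 (SE 0.05, adjusted p = 2.16e-13). Itgav, another integrin subunit, rose by 0.25 (SE 0.03, adjusted p = 2.54e-08). The single member that fell was the secreted metalloproteinase Adamts1, which read 8.66 and 8.67 at 0.5 h, 7.63 and 7.58 at 2 h, 7.29 and 7.32 at 4 h and 7.12 and 7.07 at 8 h. It was high at 0.5 h and fell in each interval, with a step of -0.94 (SE 0.04, adjusted p = 1.27e-21), or -0.41 against 2 h alone.

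In the IL-6 arm 4 of these 21 genes rose and 4 fell, near the shares over all genes (17.2% and 13.8%). The steps differed upward for 4 (4.66% of all genes) and downward for 4 (6.4%). Cd44 rose by 0.25 with IL-6, with a difference of 0.55 (adjusted p = 7.24e-08). The difference was 0.70 for Itga3 (IL-6 step -0.07, adjusted p = 7.41e-10) and 0.37 for Itgav (IL-6 step -0.12, adjusted p = 3.66e-08). These 3 differences passed against 2 h alone as well. Adamts1 differed by -0.66 (adjusted p = 3.64e-11), or -0.42 against 2 h alone.

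The genes whose rise went furthest beyond the IL-6 step were Ivl, Vcam1, Igfbp3, Plat, Rrad, Hmga2-ps1, Tmem41b, Hmga2, Bcl2l14 and Btc. Involucrin (Ivl), a cornified envelope protein, read 6.94 and 6.80 at 0.5 h, 8.98 and 9.03 at 2 h, 9.71 and 9.41 at 4 h and 8.78 and 8.93 at 8 h. The 2 h arrays lie within the range of the later ones, so the rise took place mainly between 0.5 and 2 h. The step was 1.27 (SE 0.19, adjusted p = 5.2e-07) and the difference from the IL-6 step 1.62 (adjusted p = 1.5e-05), but against 2 h alone these were 0.20 (adjusted p = 0.639) and 1.04 (adjusted p = 0.0516). Of 11 measured members of the cornified envelope list, 3 rose (15.8% of all genes), 0 fell (15.9%) and 8 did not pass. Against 2 h alone 2 rose (11.8% of all genes) and 0 fell (11.1%), with a list median of -0.02. Crct1, another member, rose by 1.01 (SE 0.06, adjusted p = 2.26e-17), or 0.56 against 2 h alone. Its difference from the IL-6 arm was 0.52 (adjusted p = 2.65e-05).

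Tissue plasminogen activator (Plat), which turns plasminogen into the protease plasmin, read 8.07 and 8.09 at 0.5 h, 9.21 and 9.22 at 2 h, 9.31 and 9.28 at 4 h and 9.66 and 9.62 at 8 h. In the IL-6 arm it read 8.24 and 8.17 at 0.5 h, 9.27 and 9.26 at 2 h, 8.53 and 8.54 at 4 h and 7.86 and 8.12 at 8 h. The 2 h arrays of both arms lay close together, after which the HGF arrays stayed high and the IL-6 arrays were lower. The HGF step was 0.82 (SE 0.13, adjusted p = 9.71e-07), but 0.25 and not passed against 2 h alone (adjusted p = 0.291). The IL-6 step was -0.47 and the difference 1.29 (adjusted p = 4.31e-07), or 1.25 against 2 h alone. Vcam1, a cell adhesion molecule, read 7.80 and 7.93 at 0.5 h, 8.10 and 8.12 at 2 h, 8.79 and 8.81 at 4 h and 8.55 and 8.55 at 8 h. It read 7.86 and 7.73 at 0.5 h, 7.58 and 7.79 at 2 h, 6.93 and 6.92 at 4 h and 7.27 and 6.89 at 8 h in the IL-6 arm. After 2 h the HGF arrays lay higher and the IL-6 arrays lower than before, with steps of 0.69 (SE 0.08, adjusted p = 2.91e-09) and -0.74 (adjusted p = 4.24e-10) and a difference of 1.43 (adjusted p = 3.15e-13). All 3 Vcam1 probe sets gave positive HGF steps, but 1 of them gave an IL-6 step of 0.32.

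Rrad, a Ras-related GTPase, read 6.35 and 6.20 at 0.5 h, 7.27 and 7.30 at 2 h, 7.56 and 7.46 at 4 h and 7.99 and 8.06 at 8 h. Its values lay higher at each later hour, and the step was 0.99 (SE 0.09, adjusted p = 6.89e-12) beside -0.13 in the IL-6 arm (adjusted p = 0.324), a difference of 1.12 (adjusted p = 1.01e-08). Relative to 2 h alone, its step was 0.48 and the difference 0.62. The chromatin protein Hmga2 rose by 0.61 (SE 0.09, adjusted p = 1.47e-07) and fell by 0.39 with IL-6. Hmga2-ps1 is a near copy of it, so the value of 0.96 under that name can hold signal of Hmga2. Igfbp3, a carrier of insulin-like growth factors, rose by 0.89 (adjusted p = 8.17e-08) and fell by 0.47 with IL-6. Tmem41b, a membrane protein of the endoplasmic reticulum, rose by 0.85 (adjusted p = 1.39e-15) and the Bcl-2 family member Bcl2l14 by 0.78 (adjusted p = 2.7e-14), while both fell with IL-6. Apart from Ivl, the differences of these 10 genes also passed against 2 h alone.

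**Figure D2:**
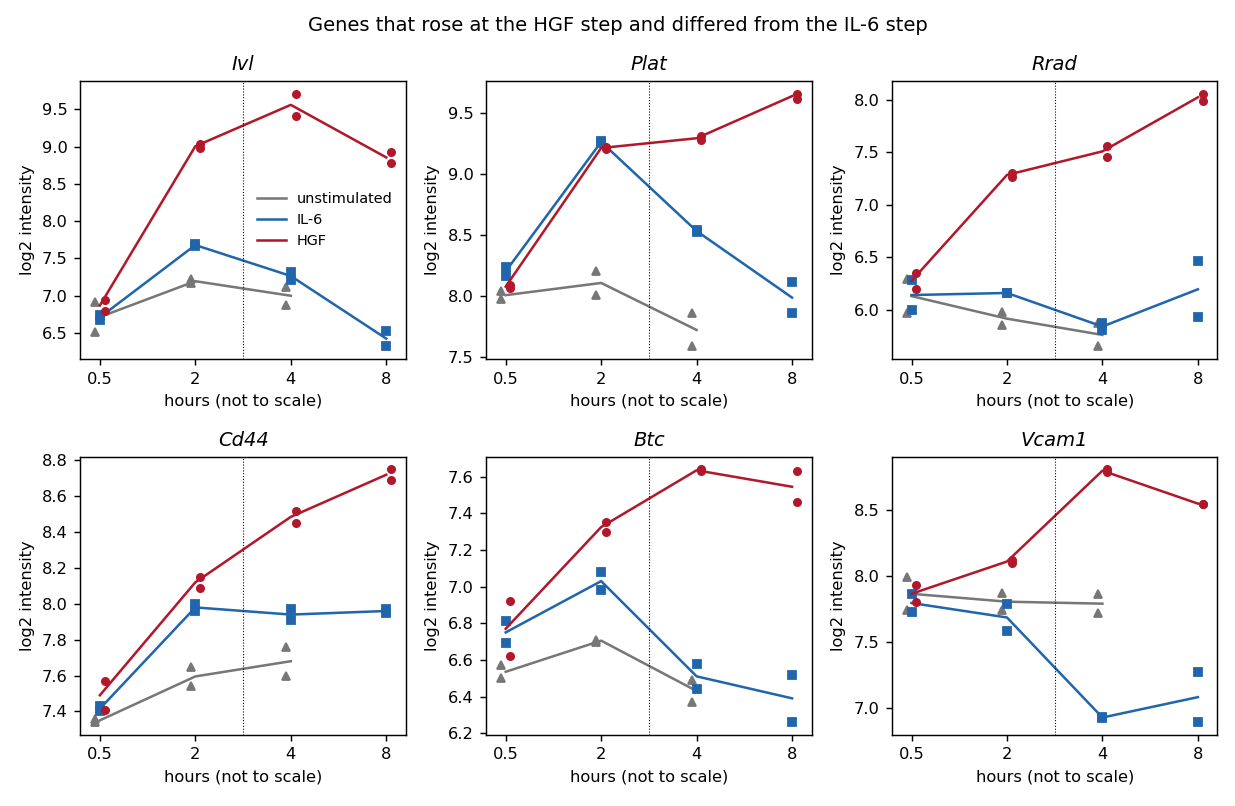
Log2 intensity of 6 genes on each array (points) by hour after HGF (red circles), IL-6 (blue squares) or no stimulus (grey triangles, to 4 h), with lines through the means of the 2 arrays. Plat lies close together in both stimulated arms at 2 h and apart from 4 h on, Vcam1 moves in opposite directions, and Ivl and Rrad have most of their HGF rise by 2 h.

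Genes of G2 and mitosis rose at the HGF step and at the IL-6 step. Of 28 measured genes of G2 and mitosis, 26 rose and 0 fell in the HGF arm (15.8% and 15.9% of all genes, list median 0.84). The IL-6 arm likewise had 26 rises and 0 falls (17.2% and 13.8% of all genes, list median 0.92). The difference between the steps passed for 2 of the 28 (11.1% of all genes), 1 in each direction. Rises were ranked over genes with all later arrays above all earlier ones, and mitotic genes supplied much of the top. Ube2c, Ccnb2, Bub1, Cdc20, Birc5 and Mki67 were among the 10 largest rises of that ranking. Ube2c, a ubiquitin conjugase of the anaphase-promoting complex, read 5.96 and 5.83 at 0.5 h, 6.43 and 6.54 at 2 h, 7.26 and 7.09 at 4 h and 7.88 and 8.06 at 8 h. The mean of its unstimulated arrays went from 6.30 at 0.5 h to 7.48 at 4 h. The HGF step was 1.39 (SE 0.10, adjusted p = 8.34e-15), the IL-6 step 1.54, and the difference of -0.15 did not pass (adjusted p = 0.633). Cyclin B2 (Ccnb2) had a step of 1.37 in each arm and a difference of 0.00 (adjusted p = 0.997). Cks2, a cyclin-dependent kinase subunit, was the member that differed upward, with 0.41 in the HGF arm, 0.09 in the IL-6 arm and a difference of 0.31 (adjusted p = 1.42e-06).

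Of 35 genes of G1 and S phase measured, 20 rose and 0 fell in the HGF arm (15.8% and 15.9% of all genes, list median 0.17). In the IL-6 arm 11 rose and 0 fell (17.2% and 13.8% of all genes, list median 0.09). Against 2 h alone, 11 rose and 0 fell with HGF (median 0.14), while 4 rose and 3 fell with IL-6 (median 0.02). The difference passed for 4 upward (4.66% of all genes) and 1 downward (6.4%), but against 2 h alone for 1 upward (2.06%) and 0 downward (3.49%). Cyclin D1 (Ccnd1), which drives entry into the cycle, read 9.13 and 9.15 at 0.5 h, 9.51 and 9.37 at 2 h, 9.76 and 9.65 at 4 h and 10.07 and 10.06 at 8 h. Both arrays of each hour lay above those of the hour before. The step was 0.60 (SE 0.08, adjusted p = 3.19e-08), beside 0.39 in the IL-6 arm, and the difference of 0.20 did not pass (adjusted p = 0.287). Slbp, which binds histone messenger RNA, rose by 0.36 with a difference of 0.22 (adjusted p = 0.00495), which was 0.17 against 2 h alone (adjusted p = 0.187). Rrm2, a subunit of ribonucleotide reductase, rose by 0.60 and cyclin E2 (Ccne2) by 0.49, with differences of 0.08 and 0.18 that did not pass.

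Ribosome biogenesis genes rose by small amounts in the HGF arm. Of 36 measured, 23 rose and 0 fell (15.8% and 15.9% of all genes, list median 0.15). In the IL-6 arm 6 rose and 3 fell (17.2% and 13.8% of all genes, list median 0.03). The difference passed upward for 8 (4.66% of all genes) and downward for 0 (6.4%). Dkc1, the pseudouridine synthase of small nucleolar RNPs, read 10.72 and 10.76 at 0.5 h, 10.93 and 10.86 at 2 h, 11.05 and 10.97 at 4 h and 11.15 and 11.14 at 8 h. The later arrays all lay above the earlier ones by small margins, with a step of 0.26 (SE 0.03, adjusted p = 4.06e-09) and a difference of 0.23 (adjusted p = 0.000146). Nop58, a core protein of the same class of particles, rose by 0.30 (adjusted p = 5.37e-08) with a difference of 0.26 (adjusted p = 0.000775). Its rise lay before 2 h, and against 2 h alone the step was 0.11 (adjusted p = 0.106) and the difference 0.18 (adjusted p = 0.13). Over the list, 7 of the 36 rose against 2 h alone (11.8% of all genes) and 3 differed upward (2.06%).

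Genes of the cytoskeleton and junctions moved both ways, with 10 of 34 measured rising (15.8% of all genes) and 7 falling (15.9%). The difference from the IL-6 step passed for 4 upward (4.66% of all genes) and 2 downward (6.4%). When 2 h alone was the reference, 5 rose and 6 fell, and 0 differed upward and 1 downward. Annexin A3 (Anxa3), a membrane-binding protein, rose by 0.38 (adjusted p = 2.47e-15), the tubulin Tuba1a by 0.61 and moesin (Msn), which ties actin to the membrane, by 0.52. Each of the 3 rose by a like amount with IL-6, with differences of 0.02, -0.12 and 0.07 that did not pass. Of 24 growth metabolism genes 9 rose (15.8% of all genes) and 3 fell (15.9%). Among the rises were the serine synthesis enzymes Phgdh (0.53) and Psat1 (0.32) and the amino acid transporter Slc38a2 (0.39), whose differences did not pass. Ppat, which opens purine synthesis, rose by 0.28 with HGF and by 0.10 with IL-6, a difference of 0.18 (adjusted p = 0.0244) that was 0.08 against 2 h alone (adjusted p = 0.624). Of 21 translation factor and tRNA synthetase genes 5 rose and 0 fell (15.8% and 15.9% of all genes). Against 2 h alone 2 rose and 0 fell (11.8% and 11.1% of all genes).

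Genes that restrain division or govern death also moved both ways. Of 16 inhibitors of cyclin-dependent kinases and p53 targets, 5 rose and 6 fell with HGF (15.8% and 15.9% of all genes). In the IL-6 arm 9 rose and 3 fell (17.2% and 13.8%). The difference was negative for 5 (6.4% of all genes) and positive for 0 (4.66%). Gadd45a, a DNA damage response gene, read 9.57 and 9.54 at 0.5 h, 8.16 and 8.25 at 2 h, 8.33 and 8.38 at 4 h and 8.55 and 8.96 at 8 h. It dropped after 0.5 h and was higher again at 8 h, so its step of -0.32 (adjusted p = 0.000131) turned to 0.35 against 2 h alone (adjusted p = 0.00102). The differences from the IL-6 step were -0.45 (adjusted p = 0.000548) and -0.38 (adjusted p = 0.0417). Of 17 survival and apoptosis genes 5 rose (15.8% of all genes) and 7 fell (15.9%). Cflar, the inhibitor of caspase 8 activation at death receptors, rose by 0.45 (adjusted p = 5.47e-14) beside 0.33 with IL-6. Its other probe sets gave HGF steps of 0.36, -0.22, 0.36 and -0.18 and IL-6 steps of 0.05, -0.31, -0.01 and -0.17. Mcl1, an antiapoptotic Bcl-2 protein, gave -0.32, but its probe sets disagree and their mean gave 0.35.

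Genes of hepatocyte metabolism mostly fell in both arms, where 15.9% of all genes fell with HGF and 13.8% with IL-6. Of 25 measured cytochrome P450 genes 19 fell and 2 rose in the HGF arm (median -0.43), and 18 fell and 0 rose in the IL-6 arm (median -0.39), with a difference for 1. Of 26 genes of amino acid and urea metabolism 22 fell and 0 rose with HGF (median -0.40). With IL-6, 22 fell and 2 rose (median -0.44). The difference for this list passed for 3, all downward, but against 2 h alone for 1 upward and 1 downward. Bile acid genes fell for 13 of 17, conjugation and transport genes for 19 of 25, gluconeogenesis and glycogen genes for 10 of 16 and fatty acid oxidation genes for 12 of 20 in the HGF arm. The corresponding IL-6 counts were 12, 13, 9 and 13. Of the P450 genes 16 fell between 4 and 8 h (5.41% of all genes), 2 between 2 and 4 h (3.99%) and 1 between 0.5 and 2 h (6.37%). The timing varied with the list: fatty acid oxidation genes fell for 7 between 2 and 4 h and 6 between 4 and 8 h, and gluconeogenesis and glycogen genes for 3, 4 and 4 over the 3 intervals.

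Arginase 1 (Arg1), the last enzyme of the urea cycle, read 10.75 and 10.58 at 0.5 h, 10.05 and 9.94 at 2 h, 9.14 and 9.23 at 4 h and 7.90 and 8.06 at 8 h. It declined at each hour, and the step was -1.75 (SE 0.14, adjusted p = 1.49e-13), a 3.35-fold fall. The IL-6 step was -1.64, and the difference of -0.11 did not pass (adjusted p = 0.848). Cps1, which commits ammonia to the urea cycle, read 12.02 and 12.03 at 0.5 h, 11.73 and 11.68 at 2 h, 11.29 and 11.23 at 4 h and 10.39 and 10.28 at 8 h. Its step was -1.07 (SE 0.07, adjusted p = 5.7e-17), with -1.26 in the IL-6 arm and a difference of 0.19 (adjusted p = 0.268). Cyp2e1, which metabolises ethanol, fell by 0.66 with HGF and by 0.63 with IL-6, and the difference of -0.03 did not pass. Baat, which conjugates bile acids to amino acids, was an exception and fell by 1.23 with HGF (adjusted p = 8.21e-13) and by 0.29 with IL-6, a difference of -0.94 (adjusted p = 1.02e-05). The glucose transporter Slc2a2 fell less with HGF (-0.89) than with IL-6 (-1.26, adjusted p of the difference 0.00199).

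Falls were ranked over genes with all later arrays below all earlier ones. Other genes among the 10 largest falls of that ranking differed between the arms as well. Chdh, the choline dehydrogenase, read 9.11 and 9.06 at 0.5 h, 8.67 and 8.93 at 2 h, 8.02 and 7.98 at 4 h and 6.36 and 6.52 at 8 h. Its step was -1.72 (SE 0.07, adjusted p = 7.74e-24) with a difference of -0.42 from the IL-6 arm (adjusted p = 0.00255). Claudin 1 (Cldn1), a tight junction protein, read 9.50 and 9.48 at 0.5 h, 9.33 and 9.25 at 2 h, 8.57 and 8.55 at 4 h and 7.19 and 7.18 at 8 h. Most of its fall came between 4 and 8 h, and the step of -1.52 (SE 0.09, adjusted p = 1.43e-17) differed by -0.57 from the IL-6 arm (adjusted p = 0.00212). Set against the 2 h arrays alone, this difference was -0.44 and did not pass (adjusted p = 0.112). Ankrd23 fell by 1.67 and Slc25a47, a mitochondrial carrier of liver, by 1.51, with differences of -0.78 and -0.52 that passed. Without the 0.5 h arrays the difference of Slc25a47 was -0.18 and did not pass (adjusted p = 0.771). Cidec, a lipid droplet protein, fell by 1.61, and its difference of -0.27 did not pass (adjusted p = 0.35).

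**Figure D3:**
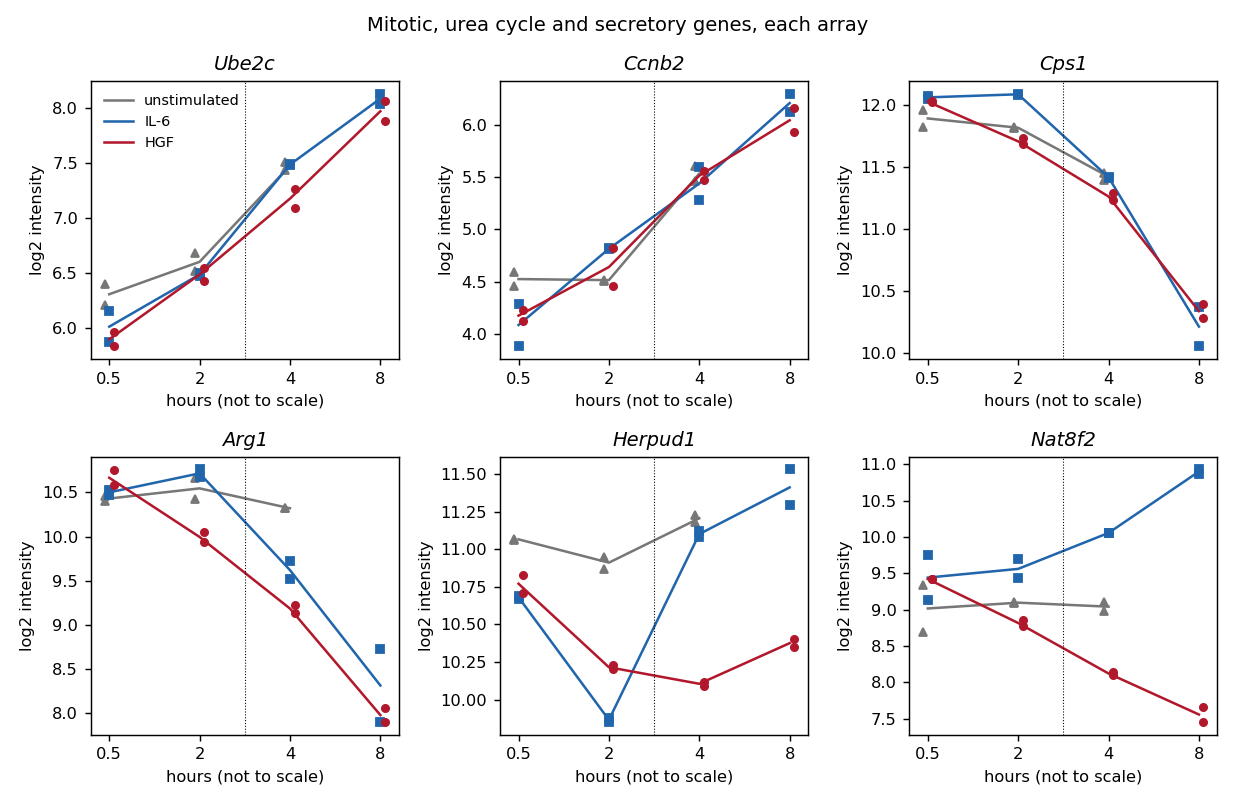
Log2 intensity of 6 genes on each array (points) by hour after HGF (red circles), IL-6 (blue squares) or no stimulus (grey triangles, to 4 h), with lines through the means of the 2 arrays. Ube2c and Ccnb2 rise and Cps1 and Arg1 fall in both stimulated arms. Herpud1 and Nat8f2 climb after 2 h with IL-6. With HGF, Nat8f2 falls and Herpud1 lies only slightly above its 2 h level at 8 h.

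Transcription factors of hepatocyte identity fell for 8 of 20 measured members (15.9% of all genes) and rose for 1 (15.8%) with HGF, with a median of -0.12. In the IL-6 arm 10 fell (13.8% of all genes) and 4 rose (17.2%), with a median of -0.14. The difference was negative for 4 (6.4% of all genes) and positive for 1 (4.66%), but against 2 h alone for 2 (3.49%) and 0 (2.06%). Cebpb read 11.55 and 11.59 at 0.5 h, 11.70 and 11.75 at 2 h, 11.28 and 11.30 at 4 h and 11.34 and 11.32 at 8 h. It dropped between 2 and 4 h, by 0.43, and the step was -0.34 (SE 0.03, adjusted p = 3.07e-13), while with IL-6 it rose by 0.17 (adjusted p = 6.31e-06). The difference was -0.51 (adjusted p = 2.57e-13). Foxa2 fell by 0.36 (adjusted p = 1.39e-10). The nuclear receptors Nr1i2, which senses foreign compounds, and Nr1h4, which senses bile acids, fell by 1.06 and 0.67 in the HGF arm and by 0.71 and 0.74 in the IL-6 arm, and their differences did not pass.

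Of 18 lipogenesis genes 7 fell (15.9% of all genes) and 2 rose (15.8%). Lpin1, a phosphatidate phosphatase, fell by 0.43 with HGF (adjusted p = 1.04e-08), or 0.24 against 2 h alone, and had an IL-6 step of 0.02, a difference of -0.46 (adjusted p = 1.94e-05). Cholesterol synthesis genes first rose with HGF, 7 of 19 between 0.5 and 2 h (5.96% of all genes). Then 9 fell between 4 and 8 h (5.41%), and 6 fell (15.9%) and 0 rose (15.8%) at the step. The IL-6 arm took a like course, with 7 rising and 12 falling in these intervals. There 12 fell and 0 rose at the step, and the difference between the arms passed for 1, upward. Insig1, a sterol-regulated brake on this pathway, read 9.27 and 9.36 at 0.5 h, 10.18 and 10.26 at 2 h, 9.63 and 9.58 at 4 h and 8.98 and 8.96 at 8 h. Its 2 h arrays were the highest and its 8 h arrays the lowest. Of 16 glucocorticoid targets 11 fell and 1 rose with HGF (15.9% and 15.8% of all genes). In the IL-6 arm 6 fell and 3 rose (13.8% and 17.2%), and the difference was negative for 5 and positive for 1 (6.4% and 4.66%). Tat, a tyrosine-degrading enzyme of this list, fell by 1.02 with HGF and by 0.92 with IL-6. Of 12 NRF2 targets 4 rose and 5 fell (15.8% and 15.9% of all genes), and 0 differed from the IL-6 step (11.1%). Against 2 h alone 1 rose (11.8% of all genes), 4 fell (11.1%) and 2 differed downward (3.49%). Of 17 YAP and TEAD targets 3 rose and 5 fell, where 15.8% and 15.9% of all genes did, and 1 rose and 5 fell against 2 h alone. Tissue factor (F3), a member of that list, fell by 0.98. Of 16 heat shock genes 5 rose (15.8% of all genes) and 3 fell (15.9%). The chaperone Dnajb1 rose by 0.61 with HGF and 0.47 with IL-6, and the HSP90 partner Chordc1 by 0.33 with HGF against an IL-6 step of 0.00, a difference of 0.33 (adjusted p = 2.55e-08).

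Over all genes, 1325 rose and 1253 fell in both the HGF and the IL-6 step. These are 57.8% of the HGF rises and 53.2% of the IL-6 rises, and 54.4% of the HGF falls and 62.7% of the IL-6 falls. A further 79 genes rose with HGF and fell with IL-6, and 111 fell with HGF and rose with IL-6. The difference of the steps passed for 1603 genes (11.1%), 675 upward and 928 downward, and 31 of them reached 2-fold. Of the 4597 genes called at the HGF step, 1027 also passed the test of the difference, 408 of them risen and further up, and 469 fallen and further down. For the other 3570 no difference from the IL-6 step passed. Against 2 h alone the difference passed for 805 genes, among them 702 of the 1603 (43.8%) in the same direction. The difference contains the IL-6 response, so a gene can differ through its movement in that arm: 576 of the 1603 were not called at the HGF step.

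**Figure D4:**
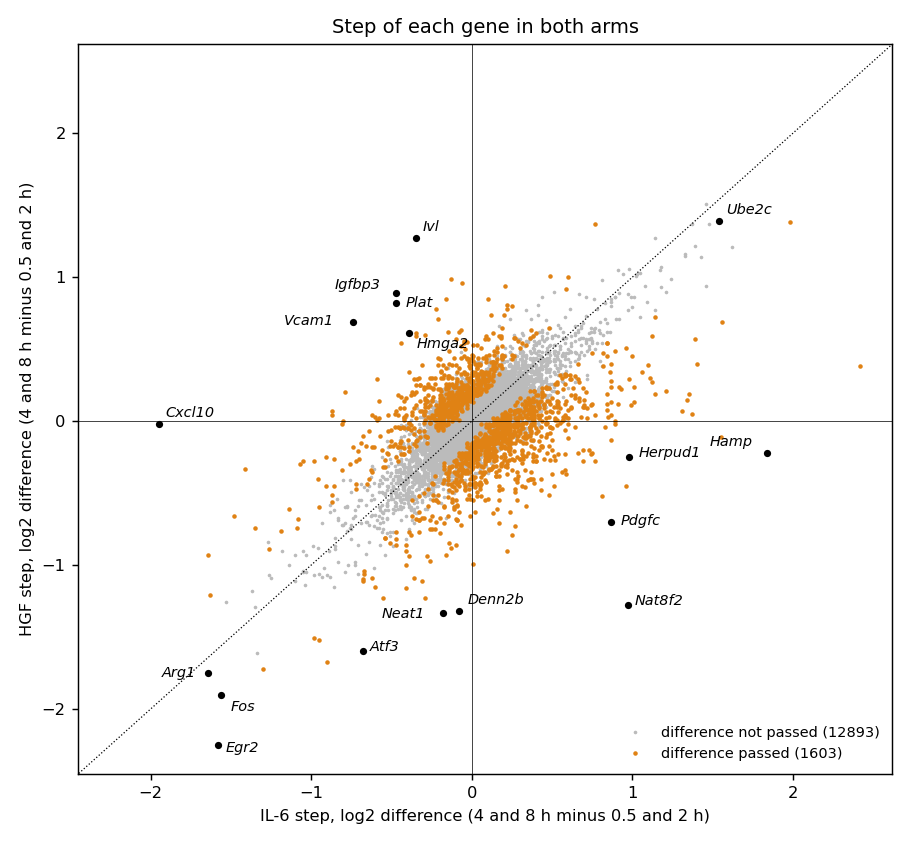
Step of each of 14496 genes in the HGF arm (vertical axis) and the IL-6 arm (horizontal axis), both as log2 differences of 4 and 8 h minus 0.5 and 2 h, with genes whose difference passed in orange (1603) and the others in grey. Ube2c and Arg1 lie near the dotted line of equal steps, Ivl and Vcam1 lie above it, and Nat8f2, Hamp and Herpud1 lie below it.

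Genes of endoplasmic reticulum stress rose with IL-6, and most of them did not pass with HGF. Of 22 genes of endoplasmic reticulum stress and protein quality control, 3 rose and 4 fell with HGF (median 0.08). These counts were near the shares over all genes (15.8% and 15.9%). With IL-6, 21 rose and 0 fell (17.2% and 13.8% of all genes, list median 0.50). When 2 h was the only earlier hour, 8 rose and 1 fell with HGF (11.8% and 11.1% of all genes, list median 0.11). Then 20 rose and 0 fell with IL-6 (13.8% and 10% of all genes, list median 0.52). Between 4 and 8 h, 7 rose and 0 fell with HGF (4.98% and 5.41% of all genes), and 15 rose and 1 fell with IL-6. The difference between the steps was negative for 19 and positive for 0 (6.4% and 4.66% of all genes, list median -0.56). Against 2 h alone it was so for 17 and 0 (3.49% and 2.06% of all genes). Herpud1, a component of protein degradation at the endoplasmic reticulum, read 10.83 and 10.71 at 0.5 h, 10.20 and 10.23 at 2 h, 10.09 and 10.12 at 4 h and 10.35 and 10.40 at 8 h. It was highest at 0.5 h, and the later HGF arrays lay on both sides of the 2 h values. The step of -0.25 (adjusted p = 3.83e-05) was 0.03 against 2 h alone (adjusted p = 0.841). With IL-6 it rose by 0.98 (adjusted p = 2.89e-21), and the difference was -1.24 (adjusted p = 2.55e-18), or -1.36 against 2 h alone. Sel1l, a subunit of the same degradation complex, fell by 0.25 with HGF and rose by 0.38 with IL-6, a difference of -0.63 (adjusted p = 1.89e-12). Its other probe sets gave HGF steps of 0.03, -0.17, 0.01 and -0.09 and IL-6 steps of 0.28, 0.23, 0.19 and -0.11.

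Of 27 acute phase genes, 16 fell and 0 rose with HGF (15.9% and 15.8% of all genes, list median -0.22). With IL-6, 2 fell (13.8% of all genes), 13 rose (17.2%) and 12 did not pass (list median 0.08). Relative to 2 h alone, 12 fell and 0 rose with HGF (11.1% and 11.8% of all genes), and 4 fell and 9 rose with IL-6 (10% and 13.8%). The difference was negative for 20 and positive for 0 (6.4% and 4.66% of all genes). Against 2 h alone it was so for 8 and 0 (3.49% and 2.06%). Serpina3n, a protease inhibitor of plasma, fell by 0.46 with HGF (adjusted p = 6.9e-07) and rose by 0.33 with IL-6, a difference of -0.79 (adjusted p = 4.28e-08). Itih4 fell by 0.25 and rose by 0.21, a difference of -0.46 (adjusted p = 2.69e-10). Crp fell by 1.11 with HGF and by 1.10 with IL-6, and its difference of -0.01 did not pass. Hepcidin (Hamp), the regulator of iron uptake, had an HGF step of -0.22 that did not pass (adjusted p = 0.144), rose by 1.84 with IL-6 and differed by -2.06 (adjusted p = 9.04e-14). Its mean in the IL-6 arm went from 6.51 at 0.5 h to 9.61 at 8 h. Hamp shares sequence with Hamp2, so its value can hold signal of that gene. Of 27 complement and coagulation genes, 17 fell (15.9% of all genes) and 1 rose (15.8%) with HGF, and 7 were lower than at the IL-6 step (6.4%). Complement C5 (Hc) fell by 0.35 (adjusted p = 4.83e-10) and had an IL-6 step of -0.01, a difference of -0.34 (adjusted p = 7.94e-06). Of 20 genes of secreted and lipoprotein products 11 fell (15.9% of all genes) and 0 rose (15.8%). The difference passed for 1 downward (6.4%) and 1 upward (4.66%).

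The chemokine Cxcl10, which draws T cells and is named in the title of the study, read 7.93 and 7.99 at 0.5 h, 7.88 and 7.95 at 2 h, 8.34 and 8.27 at 4 h and 7.53 and 7.53 at 8 h. In the IL-6 arm it read 8.22 and 8.19 at 0.5 h, 9.35 and 9.37 at 2 h, 6.79 and 6.92 at 4 h and 6.94 and 6.67 at 8 h. With HGF the arrays of 0.5 and 2 h lay between those of 8 h and 4 h, and it fell by 0.78 between 4 and 8 h. With IL-6 it was highest at 2 h. The HGF step was -0.02 (SE 0.11, adjusted p = 0.935), the IL-6 step -1.95 (adjusted p = 1.11e-19) and the difference 1.93 (adjusted p = 1.01e-13). Socs3, the STAT3-induced inhibitor of gp130 signalling, read 6.87 and 6.79 at 0.5 h, 8.06 and 8.15 at 2 h, 7.14 and 7.29 at 4 h and 7.40 and 7.32 at 8 h. It peaked at 2 h and had a step of -0.18 (adjusted p = 0.0219), which was lost without any 1 of 4 HGF arrays (adjusted p of 0.0845 to 0.13) but was -0.82 against 2 h alone (adjusted p = 1.41e-11). Its difference from the IL-6 step was 0.56 over all hours and -0.42 against 2 h alone, both past the threshold, so its direction turns with the reference. Over the 19 genes of the STAT3 and gp130 list, 4 rose and 5 fell with HGF (15.8% and 15.9% of all genes). In the IL-6 arm 9 rose and 4 fell (17.2% and 13.8%). The difference was positive for 1 (4.66% of all genes) and negative for 8 (6.4%). When 2 h alone was the reference, 2 rose and 6 fell with HGF, 5 rose and 7 fell with IL-6, and the difference was positive for 0 and negative for 5. Of 26 chemokine and cytokine genes 6 rose (15.8% of all genes) and 7 fell (15.9%) with HGF. The neutrophil chemokine Cxcl1 fell by 0.51 (adjusted p = 7.75e-13), or 0.21 against 2 h alone, and by 0.87 with IL-6, a difference of 0.36 (adjusted p = 3.44e-05). Of 19 interferon response genes 4 rose and 2 fell, near the shares over all genes (15.8% and 15.9%), with the transcription factor Irf1 rising by 0.46.

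Among single genes the largest downward differences with a fall at the HGF step were Nat8f2, Pdgfc, Rcan2, Paqr9, Denn2b, Herpud1, Neat1, Pmaip1, Serpina7 and Gm19950. Nat8f2, of the N-acetyltransferase 8 family, read 9.42 and 9.42 at 0.5 h, 8.78 and 8.85 at 2 h, 8.10 and 8.14 at 4 h and 7.45 and 7.66 at 8 h. It fell at each hour while the mean of the IL-6 arrays went from 9.44 at 0.5 h to 10.90 at 8 h. The steps were -1.28 (SE 0.11, adjusted p = 2.91e-13) and 0.97 (adjusted p = 5.04e-10), with a difference of -2.25 (adjusted p = 1.37e-15). Platelet-derived growth factor C (Pdgfc) fell by 0.70 (adjusted p = 5.3e-12), or 0.39 against 2 h alone, and rose by 0.87 with IL-6. Denn2b, a DENN domain protein, read 8.47 and 8.43 at 0.5 h, 7.88 and 8.01 at 2 h, 7.19 and 7.10 at 4 h and 6.51 and 6.71 at 8 h. It fell at every hour by a step of -1.32 (SE 0.05, adjusted p = 2.46e-24) beside -0.08 in the IL-6 arm (adjusted p = 0.281). Pmaip1, a BH3-only promoter of apoptosis, fell by 0.90 (adjusted p = 6e-11), mostly between 2 and 4 h, and its IL-6 step of 0.22 did not pass (adjusted p = 0.0575). Fas, a death receptor, fell by 0.54 (adjusted p = 1.69e-10), with a difference of -0.65 (adjusted p = 4.82e-08). The differences of all 10 leading genes also passed against 2 h alone, Neat1 with the weakest support (adjusted p = 0.0455). Another probe set of Neat1 gave an HGF step of 0.03, beside -1.33 for the one used.

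Some clock genes fell further with HGF. Of 18 measured, 4 rose and 8 fell with HGF (15.8% and 15.9% of all genes), and 5 rose and 4 fell with IL-6 (17.2% and 13.8%). The difference was negative for 7 (6.4% of all genes) and positive for 0 (4.66%). Against 2 h alone 3 rose and 4 fell with HGF, and the difference was negative for 6. Arntl, a core activator of the clock, had means of 8.36 at 0.5 h, 7.86 at 2 h, 7.75 at 4 h and 7.10 at 8 h. The later arrays all lay below the earlier ones. It fell between 0.5 and 2 h and again between 4 and 8 h, with a step of -0.69 (SE 0.06, adjusted p = 9.9e-13), -0.44 against 2 h alone, and a difference of -0.36 (adjusted p = 0.00292). Rora fell by 0.44 with HGF (adjusted p = 2.15e-10), had an IL-6 step of 0.04 (adjusted p = 0.565) and differed by -0.48 (adjusted p = 3.72e-07). Set against the 2 h arrays alone, its step was -0.25 and the difference -0.29.

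**Figure D5:**
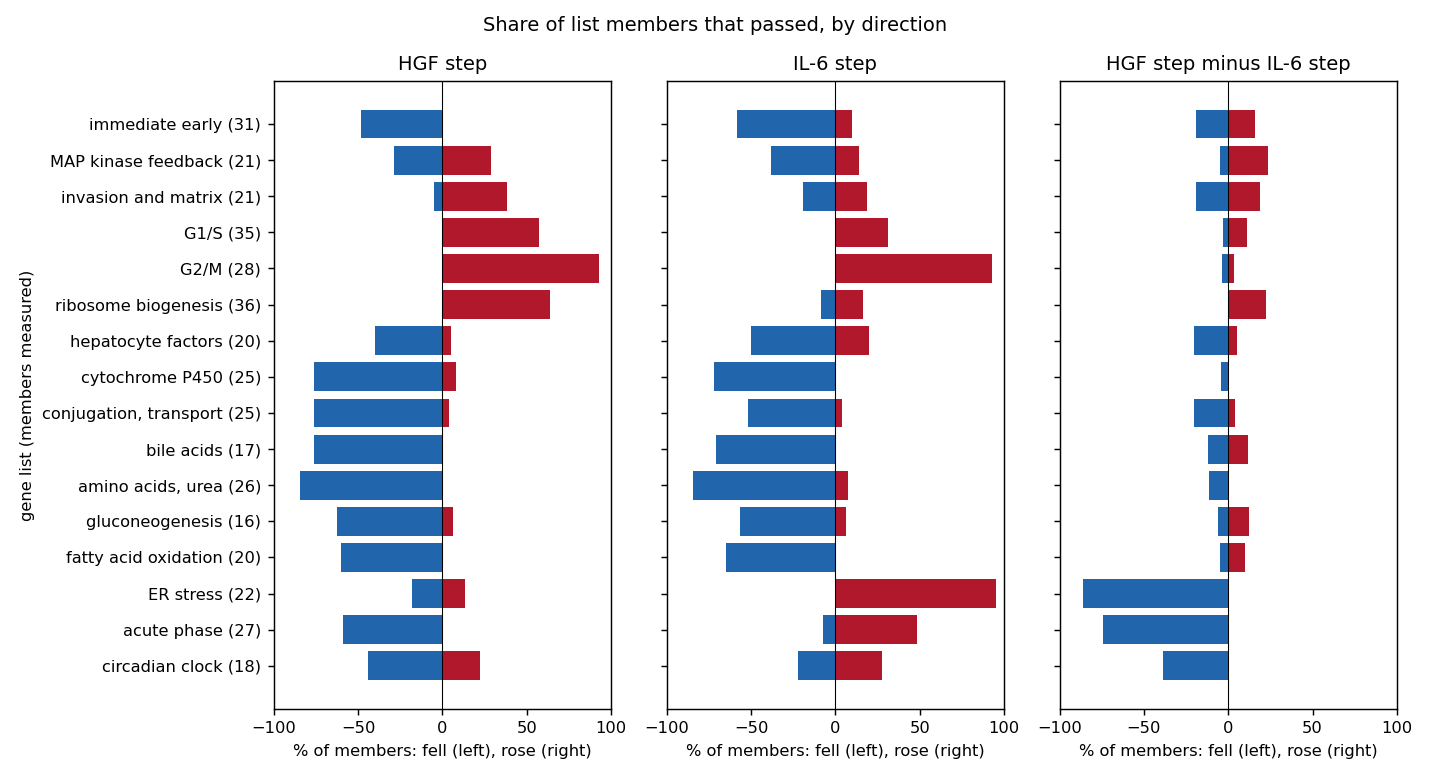
Share of the measured members of 16 gene lists that fell (blue, left) or rose (red, right) at an adjusted p under 0.05 in the HGF step, in the IL-6 step and in the difference of both, with the number measured in brackets. Metabolic lists mostly fall and mitotic genes mostly rise in both arms, while the difference is mostly negative for endoplasmic reticulum stress (19 of 22) and acute phase genes (20 of 27).

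A part of the step could be set against unstimulated cells, whose 8 h arrays differ in a labelling control from those of 0.5 to 4 h and were left out. The difference of the 3′ and 5′ probe sets of the spiked dap transcript was 1.18 to 1.52 on unstimulated arrays of 0 to 4 h, 2.69 to 2.71 on those of 8 h and 2.56 to 2.86 on the HGF arrays of 0.5 to 8 h. The step to 4 h with HGF, less the same step without stimulus, passed for 483 genes (3.33%), 218 upward and 265 downward. Genes were ranked only if they also passed the HGF step in the same direction. Among these, Ivl led the rises with 1.58 (adjusted p = 0.00225), followed by Rrad (0.99, adjusted p = 7.34e-05), Plat (0.98), Vstm5 (0.91) and Vcam1 (0.86). Egr2 led the falls of this ranking with -1.94 (adjusted p = 3.01e-08), followed by Atf3 (-1.22), Neat1 (-1.09), the Wnt regulator Dact1 (-1.08) and the lipid droplet protein Plin5 (-1.04). Of the immediate early genes 9 of 31 were lower by this test (1.83% of all genes) and 4 higher (1.5%), of ribosome biogenesis genes 8 of 36 were higher and 0 lower, and of G2 and mitosis genes 0 of 28 differed.

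The count of 483 depended on single arrays and on the 0.5 h arrays. It was 202 without the first and 315 without the second unstimulated array of 4 h, and 247 and 251 without the first and second HGF array of 4 h. Plat, Vstm5 and Neat1 lost their calls without the first unstimulated array of 4 h (adjusted p of 0.0879, 0.0952 and 0.178), and Neat1 also without the first HGF array of 2 h or the second of 4 h (adjusted p of 0.075 and 0.15). For 4 h against 2 h alone, an alternative chosen after seeing the data, 75 genes passed. Of the 10 named, Vcam1, Egr2, Atf3, Dact1 and Plin5 were among them and the other 5 were not.

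The combination arm, whose arrays enter neither step, was compared as well. There 6289 genes changed (43.4%), 2782 upward and 3507 downward. Of the HGF rises, 1552 (67.7%) were also called upward in the combination arm and 47 (2.05%) downward. Of the HGF falls, 1973 (85.6%) were called downward and 53 (2.3%) upward. These shared calls are 55.8% and 56.3% of the calls in the combination arm. Atf3 fell by 1.38, Cd44 rose by 0.83 and Crct1 rose by 1.30 with both stimuli. Vcam1 fell by 0.84, Nat8f2 rose by 0.83, and the endoplasmic reticulum list rose for 21 of 22 members and fell for 1. Plat, with 0.82 at the HGF step, gave -0.06 in the combination arm (adjusted p = 0.721), and Ivl gave 0.35 (adjusted p = 0.135).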

How the data were processed

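The authors deposited log2 probe set values of 60 Mouse430_2 arrays in 29 groups, in 1 table. Their summarisation and normalization were not given in the sources used here. Medians of the arrays lay between 4.88 and 4.97, and 0 of 1770 array pairs were identical. The labels speak of triplicates, and 2 arrays per group (4 for unstimulated cells at 0 h) were analysed here.

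Of 45101 probe sets, 34958 carry 1 gene symbol, 932 several and 9211 are unnamed here. Each of 18161 genes was read from its probe set with the highest mean. Genes above the 40th percentile of an array on at least 2 arrays (14496) were tested with limma 3.58.1 in R 4.3.3, with 1 mean per group, eBayes with trend and 31 residual degrees of freedom. Deviations of same-numbered replicates correlated at -0.27 to 0.25 over 378 pairs of groups, with a median of -0.00043. Replicate numbers need not match between groups, so these values cannot show whether replicates of different groups are independent. The fit has no block, and counts with the replicate number as a block are given below.

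The genes named are the 10 largest rises and falls of the HGF step with all later arrays beyond all earlier ones. Added to these are the 10 largest differences each way with the HGF step passed in that direction. So are the 5 largest each way for the HGF step to 4 h less the unstimulated one, again with the HGF step passed in that direction. The rest are up to 4 members of each list by HGF step, and Met, Egfr, Cxcl10, Socs3, Myc, Ccnd1 and Hamp. The comparison, the lists and these genes were chosen with earlier results of these data known. Alternatives covered scaling, filter, probe set choice, variance model, replicate block, hours, reference arm and each array left out. Comparing 4 h with 2 h alone against unstimulated cells, and list counts against 2 h alone, were added after seeing the data.

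On simulated data for the HGF step with 14496 genes, 31 of 50 genes changed 1.2-fold, 39 of 50 changed 1.3-fold and 50 of 50 changed 1.5-fold were called, with 10 calls among 14296 unchanged genes. For the difference from the IL-6 step, 20, 26 and 45 of 50 were called at these folds, with 7 calls among the unchanged genes. Far fewer genes changed in the simulation than were called in the real data, so these rates need not carry over.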

Additional observations from a re-analysis of the deposited data

Results flagged for a closer look

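These results were picked out because a test of the difference itself passed between the HGF arm and another arm. The HGF step differed from the IL-6 step for 1603 genes, and the HGF step to 4 h differed from the unstimulated one for 483, by limma at an adjusted p under 0.05. A difference can come from movement in either arm, and each arm's own step is given above.

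The named genes with a higher step in the HGF arm than in the IL-6 arm were Ivl (1.62), the adhesion molecule Vcam1 (1.43), Igfbp3 (1.36), the protease Plat (1.29), Rrad (1.12), Hmga2-ps1 (1.02), Tmem41b (1.01), Hmga2 (1.01), Bcl2l14 (1.0) and the EGF receptor ligand Btc (0.98), as log2 differences. Those with a lower step were Nat8f2 (-2.25), Pdgfc (-1.57), Rcan2 (-1.41), Paqr9 (-1.33), Denn2b (-1.24), Herpud1 (-1.24), Neat1 (-1.14), Pmaip1 (-1.12), Serpina7 (-1.05) and Gm19950 (-1.04). Of the genes chosen for their role, Cxcl10 (1.93), Socs3 (0.56) and Met (0.16) differed upward and Hamp (-2.06) downward.

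Against unstimulated cells at 4 h, Ivl (1.58), Rrad (0.99), Plat (0.98), Vstm5 (0.91) and Vcam1 (0.86) were higher. Egr2 (-1.94), Atf3 (-1.22), Neat1 (-1.09), Dact1 (-1.08) and Plin5 (-1.04) were lower.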

How the results depend on the processing

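Counts of genes called moved by over 1.5 times under few settings. Requiring a 2-fold change left 67 genes for the HGF step, 80 for the IL-6 step, 31 for their difference, 166 for the combination arm and 9 for the comparison with unstimulated cells. With 4 h alone as the later hour the counts were 2515, 2514 and 587 for the HGF step, the IL-6 step and the difference. The difference passed for 805 genes against 2 h alone. Treating the HGF arrays as 2 groups of 4, which puts the spread between hours into the error, left 2597. The comparison with unstimulated cells gave 756 with only the compared arrays in the fit and 75 for 4 h against 2 h alone, and the cause was not tested. Leaving out single arrays gave 3978 to 4200 genes for the HGF step, 3883 to 4110 for the IL-6 step, 1299 to 1529 for the difference, 5585 to 5951 for the combination arm and 202 to 459 for the comparison with unstimulated cells. With the replicate number as a block the counts were 4629, 4518, 1634, 6325 and 503.

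Of 4424 values of named genes under the alternatives, 4134 kept direction and side of the threshold, 260 lost and 16 gained a call, and 14 turned. With the mean over probe sets Mcl1 gave 0.35, Dnaja1 -0.07 and Apob 0.00. Against 2 h alone Myc gave 0.19, Fgf21 0.51, Eif1a -0.01, Gadd45a 0.35, Chac1 0.11, Herpud1 0.03 and the difference of Socs3 -0.42. With 4 h alone Cxcl10 gave 0.37, Srxn1 0.01 and Mt2 0.04, and with 8 h alone Chac1 gave 0.01. In the simulation 31 of 50 changes of 1.2-fold were called for the HGF step and 20 of 50 for the difference. Small changes can thus be missed with 2 arrays per group, but the rate in these data was not tested.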
